A study of Homo sapiens with 12 samples.

Results

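The genes described here are 31 targets of p53, the tumour suppressor protein that binds DNA after stress or damage and switches on a programme of arrest, repair and cell death. They were chosen by name, and each was followed through every array probe that the HumanHT-12 v4 annotation gives its symbol and that was above background (detection p under 0.01) on 2 or more of the 12 arrays. Of 44 probes annotated to these genes 33 met that rule, which left 24 of the 31 genes, out of 19172 probes kept from 47323 in all. Of the kept member probes, 28 were above background on all 12 arrays.

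As background, p53 is held at a low level by MDM2, the ubiquitin ligase that is also its own target, and it is stabilised when DNA is damaged or ribosome assembly or growth signalling is disturbed. Its targets fall into functional branches: p21 (CDKN1A) and related genes stop the cell cycle, BAX, BBC3 and the death receptors promote apoptosis, DDB2 and XPC recognise damaged bases, and MDM2 and PPM1D feed back on p53 itself. In prostate carcinoma, p53 and the androgen receptor pathway are both studied as regulators of growth.

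RNA was measured in 22Rv1, an established line of human prostate carcinoma cells, in 3 sublines that each carried a short hairpin RNA switched on by doxycycline. The groups were HNF4G hairpin 1 with doxycycline and without it, HNF4G hairpin 2 with doxycycline and without it, and a scrambled control hairpin with doxycycline and without it, 2 arrays each. HNF4G is a nuclear receptor of the gastrointestinal lineage. All cells were grown in RPMI medium with 10% fetal bovine serum and harvested after 3 days of doxycycline or vehicle. The labels do not say whether a subline is 1 clone, or whether the replicates of a group came from separate cultures, and a p-value here therefore reflects array-to-array spread, possibly of a technical kind.

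Median intensity per array was 92.5 to 108, and 14959 to 18293 probes per array were above background. The dimmest array was scrambled with doxycycline, replicate 1, and it had 29 of the 33 member probes above background, where the other arrays had 29 to 31. The targeted gene followed its labels: HNF4G read 4.73 and 4.83 with doxycycline against 6.30 and 6.18 without it in the hairpin 1 subline and 4.71 and 4.35 against 6.40 and 6.49 in the hairpin 2 subline, in normalized log2 intensity. It was not above background on any induced array of either hairpin, so only a bound can be given, taken against the lowest signal above background on each array or the probe's own where higher: HNF4G was at least 2.08-fold higher without doxycycline in the hairpin 1 subline and at least 2.48-fold higher in the hairpin 2 subline (limma adjusted p = 0.00184 and 3.23e-04). In the scrambled subline, at 5.81 and 6.19 against 6.35 and 6.13, it did not pass. Of 8 luminal prostate markers with a probe, 6 were above background on every array, while none of 3 basal keratins was on any array, nor were 5 of 6 blood cell markers or 4 of 7 stromal markers. The stromal marker ACTA2 was above background on every array. The neuroendocrine markers CHGB and SYP were above background on every array. Of the luminal marker probes 1 passed in a doxycycline comparison, that of FOLH1 with hairpin 2 (1.17 ± 0.17, limma adjusted p = 0.00553), and its part in the values below was not tested.

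Values below are normalized log2 intensities, in which 1 unit is a doubling of the corrected signal. A response is the mean with doxycycline minus the mean without it in the same subline, given ± its limma standard error, with 2 arrays in each group. P-values are from limma, two-sided, and adjusted by Benjamini and Hochberg over all 19172 kept probes, with a threshold of 0.05.

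Across all 6 groups, 1 of the 33 member probes passed limma's test of any difference between group means, against 3.54% of all kept probes: that of SESN1, a sestrin that restrains mTORC1 growth signalling under stress. SESN1 measured 6.03 and 6.48 with doxycycline and 6.65 and 6.70 without it in the hairpin 1 subline, 7.38 and 7.30 against 6.84 and 6.61 in the hairpin 2 subline, and 6.72 and 6.71 against 6.32 and 6.36 in the scrambled subline. The hairpin 2 arrays with doxycycline were the highest of the 12, and the arrays with and without doxycycline did not overlap in any subline. With doxycycline the hairpin 1 arrays lay below the uninduced ones, whereas the hairpin 2 and scrambled arrays lay above them. The test over the 6 groups gave adjusted p = 0.0213. It did not hold without either hairpin 2 doxycycline array (adjusted p = 0.145 without replicate 1 and 0.116 without replicate 2), and it held in the other 10 fits that each left out 1 array. Without adjustment 11 member probes had p under 0.05 in this test, against 20.1% of all kept probes.

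In order of their SESN1 means the groups were hairpin 2 with doxycycline (7.34), hairpin 2 without it (6.73), scrambled with doxycycline (6.72), hairpin 1 without it (6.68), scrambled without it (6.34) and hairpin 1 with doxycycline (6.26). The 3 groups in the middle lay within the spread of the uninduced hairpin 2 arrays, and the arrays of the lowest 2 groups overlapped. As for the single comparisons, SESN1 responded by -0.42 ± 0.17 with hairpin 1 (adjusted p = 0.389), by 0.61 ± 0.17 with hairpin 2 (adjusted p = 0.119) and by 0.38 ± 0.17 with the scrambled hairpin (adjusted p = 0.517). None of the 3 passed.

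Because promoters of p53 targets often hold p53 response elements, the 250 bases before each RefSeq transcription start (GRCh38.p14) were searched on both strands for the consensus p53 half-site, which reads the same on either strand. Of 38 starts listed for 26 of the 31 genes, 5 had an exact match (13.2%), compared with 5.57% of 35116 starts of all genes. Among the genes with a kept probe only SESN1 and AEN, an exonuclease of apoptotic DNA breakdown, had a match, and the sequences of both are shown. It was known at that point that these genes had the smallest p-values in the hairpin 2 response. The SESN1 site lies 49 to 40 bases before 1 of its 3 listed starts, on the minus strand at chr6:109009018-109009047 with its flanks. The AEN window is the whole 250 bases before its start, on the plus strand at chr15:88621090-88621339, with the site 34 to 25 bases before the start. Capitals mark the half-site, each read 5′ to 3′ on the gene's strand.
SESN1: attgtcgtctGGACAAGTCTccacaagtca
AEN: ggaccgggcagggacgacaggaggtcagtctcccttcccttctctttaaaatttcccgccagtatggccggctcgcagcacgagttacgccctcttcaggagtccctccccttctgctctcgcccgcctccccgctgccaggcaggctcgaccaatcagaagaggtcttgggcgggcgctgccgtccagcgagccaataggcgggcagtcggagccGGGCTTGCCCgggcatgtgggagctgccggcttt
A match in these windows is a description of the letters, and p53 binding was not measured. Sites farther from a start, within a gene or differing from the consensus were not looked for, so a gene without a match may still have one. GADD45A, RRM2B, PHLDA3, TP53INP1 and TNFRSF10B were not searched.

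**Figure D1:**
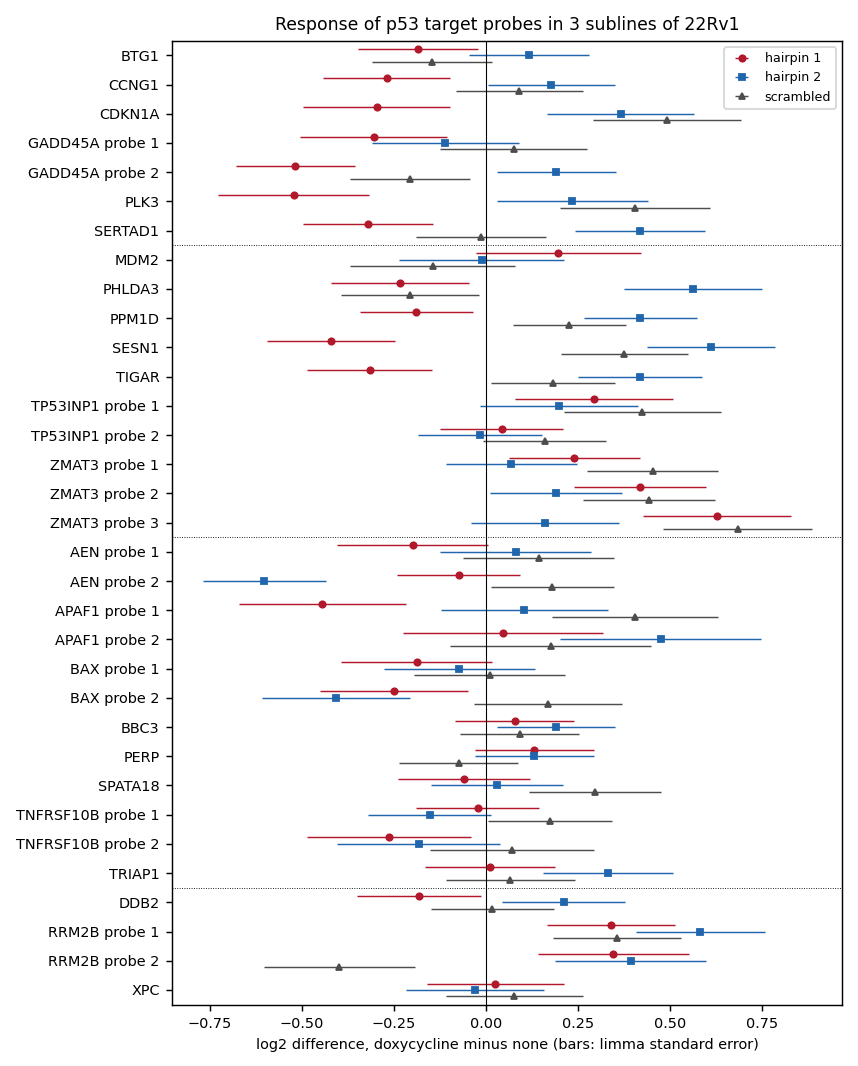
Log2 difference between doxycycline and no doxycycline (horizontal axis) for the 33 member probes (rows, grouped by role with dotted lines), with hairpin 1 as circles, hairpin 2 as squares and the scrambled hairpin as triangles, and bars of 1 limma standard error. All differences lie between -0.60 and 0.68, and hairpin 1 points of the 7 cell cycle probes in the top block all lie below 0. PLK3 among these was near background and was kept partly through an uninduced hairpin 1 array.

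With hairpin 1, none of the 33 member probes passed, where 0.589% of all kept probes did. The largest responses among them were 0.63 and -0.52, and the smallest response that passed for any probe in this comparison was 0.80 in size. Unadjusted, 5 member probes had p under 0.05 (11.1% of all kept probes did), 2 of them above 0 and 3 below (5.14% and 5.97% of all kept probes). The member probes had a median response of -0.18, against 0.01 for all kept probes, and 20 of 33 lay below the median of all probes (50% of all kept probes do). When each array was scaled to a common median in place of quantile normalization, these medians were 0.01 for the members and 0.15 for all probes.

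The cell cycle branch had 7 probes (6 genes), none of which passed with hairpin 1. PLK3, near background, was kept partly through an uninduced hairpin 1 array, so its sign here is not counted as a result. The other probes of the branch all responded below 0 with hairpin 1, from -0.52 (GADD45A probe 2) to -0.18 (BTG1), and 2 of them are of GADD45A. By definition 50% of all kept probes lie below their median, which was 0.01 here, and the share below 0 was not counted. The smallest p of any member belonged to GADD45A, a sensor of growth arrest and DNA damage, through its probe 2. It read 7.24 and 7.45 with doxycycline and 7.91 and 7.81 without it in the hairpin 1 subline, 7.47 and 7.68 against 7.27 and 7.49 with hairpin 2, and 7.45 and 7.59 against 7.71 and 7.74 in the scrambled subline. Hairpin 1 and scrambled arrays with doxycycline were below their uninduced arrays, and the hairpin 2 arrays overlapped. This gave a response of -0.52 ± 0.16 with hairpin 1 (adjusted p = 0.224), 0.19 ± 0.16 with hairpin 2 and -0.21 ± 0.16 in the scrambled subline. Probe 1 of GADD45A responded by -0.30, -0.11 and 0.08 in the same order.

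CDKN1A encodes p21, the inhibitor of cyclin-dependent kinases through which p53 halts the cell cycle. It read 10.49 and 10.29 with doxycycline and 10.72 and 10.66 without it in the hairpin 1 subline, 10.85 and 10.80 against 10.47 and 10.44 in the hairpin 2 subline, and 10.76 and 10.75 against 9.92 and 10.61 in the scrambled subline. Induced and uninduced arrays did not overlap in any of the 3, with hairpin 1 arrays lower and the others higher under doxycycline. One uninduced scrambled array, replicate 1, was the lowest of the 12. The responses were -0.30 ± 0.20 (95% interval -0.73 to 0.13) with hairpin 1, 0.37 ± 0.20 (-0.06 to 0.80) with hairpin 2 and 0.49 ± 0.20 (0.06 to 0.92) with the scrambled hairpin, and none passed (adjusted p = 0.642, 0.442 and 0.454).

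Also in this branch, CCNG1, cyclin G1, responded by -0.27 ± 0.17 with hairpin 1 and BTG1, an antiproliferative factor, by -0.18 ± 0.16. SERTAD1, a cofactor that binds the kinase CDK4, responded by -0.32 ± 0.18. PLK3, a polo-like kinase, was above background only on 1 uninduced hairpin 1 array and 1 scrambled doxycycline array, through which it met the detection rule. Its values of 4.41 to 5.39 lie near background throughout, and no difference is given for it, although it is among the probes with an unadjusted p under 0.05 counted here and in the comparisons below that name it.

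The other leading hairpin 1 values belonged to ZMAT3, an RNA-binding zinc finger protein of the feedback and regulator branch, whose probes leaned the opposite way. Probe 3 of ZMAT3 read 7.56 and 7.51 with doxycycline and 6.74 and 7.07 without it in the hairpin 1 subline, 7.38 and 7.30 against 6.92 and 7.43 in the hairpin 2 subline, and 7.16 and 7.41 against 6.44 and 6.76 in the scrambled subline. Hairpin 1 and scrambled arrays were higher with doxycycline, with no overlap, and the hairpin 2 arrays overlapped. The response was 0.63 ± 0.20 with hairpin 1 (adjusted p = 0.237), 0.16 ± 0.20 with hairpin 2 and 0.68 ± 0.20 with the scrambled hairpin (adjusted p = 0.318). Its other probes responded by 0.24 and 0.42 with hairpin 1, by 0.07 and 0.19 with hairpin 2 and by 0.45 and 0.44 in the scrambled subline.

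With hairpin 2, again 0 of 33 member probes passed by limma, where 0.97% of all kept probes did, and 7 had an unadjusted p under 0.05 (13.9% of all kept probes). Of these, 6 were above 0 and 1 below (6.83% and 7.11% of all kept probes). The smallest response that passed for any probe was 0.70 in size, and the members ranged from -0.60 to 0.61. Their median response was 0.18, against 0.00 for all kept probes, and 9 of 33 lay below the median of all probes (against 50%). Set side by side, 14 probes were below 0 with hairpin 1 and above 0 with hairpin 2, 3 had the reverse, 10 were above 0 with both and 6 below 0 with both. PLK3, near background, is among the 14, and a gene with several probes is counted once per probe. The same split was not counted over all kept probes, so it does not set the members apart from other probes.

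The smallest p with hairpin 2 was that of AEN probe 2. AEN read 6.77 and 6.64 with doxycycline and 6.73 and 6.82 without it in the hairpin 1 subline, 6.27 and 6.53 against 6.97 and 7.04 in the hairpin 2 subline, and 7.35 and 7.15 against 6.93 and 7.22 in the scrambled subline. The hairpin 2 arrays with doxycycline were the lowest of the 12, and the arrays of the other sublines overlapped. The response was -0.60 ± 0.17 (adjusted p = 0.115). AEN probe 1, with 8.64 and 8.54 against 8.70 and 8.32 in the hairpin 2 subline, responded by 0.08, so the 2 probes of the gene disagree.

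RRM2B supplies deoxynucleotides for repair as a subunit of ribonucleotide reductase. Its probe 1 read 6.97 and 7.02 with doxycycline and 6.65 and 6.66 without it in the hairpin 1 subline, 7.27 and 7.31 against 6.56 and 6.86 in the hairpin 2 subline, and 6.74 and 6.96 against 6.68 and 6.31 in the scrambled subline. Induced arrays were higher in all 3 sublines without overlap. The responses were 0.34 ± 0.17 with hairpin 1, 0.58 ± 0.17 with hairpin 2 (adjusted p = 0.140) and 0.36 ± 0.17 with the scrambled hairpin. RRM2B probe 2 responded by 0.35 and 0.39 with the hairpins and by -0.40 with the scrambled one, where the probes disagree.

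PHLDA3, which competes with AKT for membrane lipids, read 6.17 and 6.45 with doxycycline and 6.62 and 6.46 without it in the hairpin 1 subline, 7.14 and 7.02 against 6.38 and 6.65 in the hairpin 2 subline, and 6.65 and 6.67 against 7.10 and 6.64 in the scrambled subline. The induced hairpin 2 arrays lay above both uninduced ones, the induced hairpin 1 arrays lay below both of theirs, and the scrambled arrays overlapped. Its hairpin 2 response was 0.56 ± 0.19 (adjusted p = 0.186). PPM1D, the phosphatase that returns p53 and its kinases to the resting state, read 8.58 and 8.28 against 7.97 and 8.05 in that subline, with no overlap (0.42 ± 0.15, adjusted p = 0.229). TIGAR, a phosphatase that lowers glycolysis, read 6.87 and 7.03 against 6.40 and 6.66 there (0.42 ± 0.17, adjusted p = 0.278). SERTAD1 read 8.46 and 8.35 against 7.98 and 7.99 there (0.42 ± 0.18, adjusted p = 0.303).

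**Figure D2:**
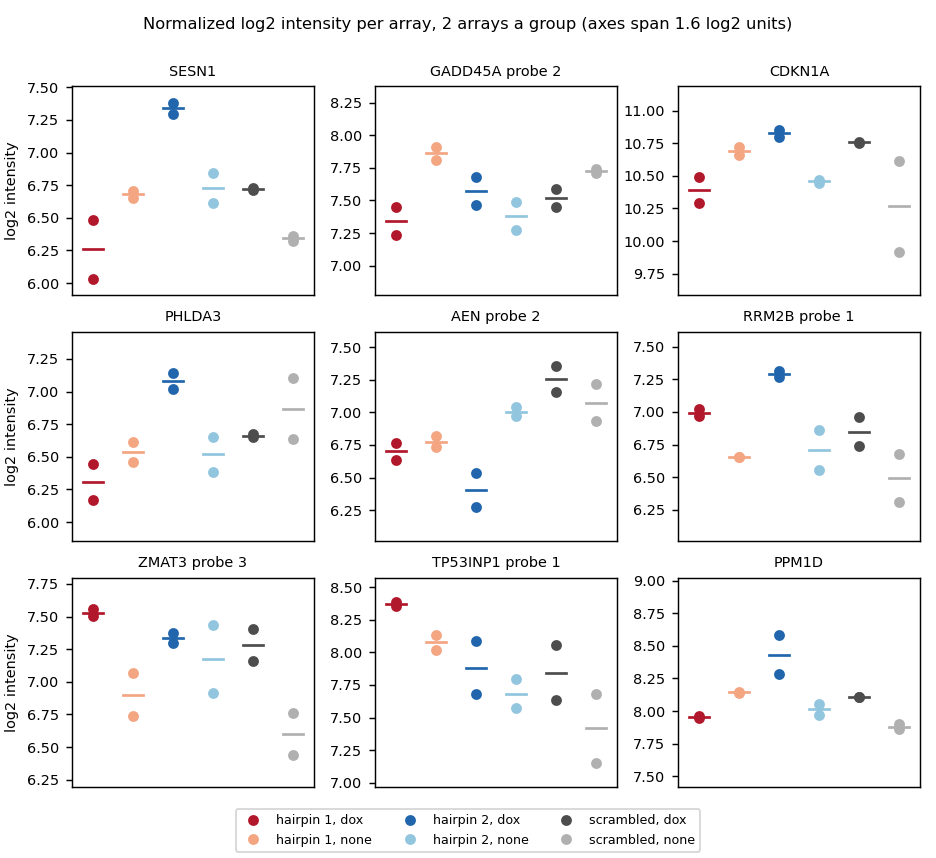
Normalized log2 intensity of 9 member probes on each array (points) with the group mean (bar), for hairpin 1, hairpin 2 and scrambled sublines with doxycycline (dark) and without it (light), left to right. SESN1 and RRM2B probe 1 are highest in the 2 induced hairpin 2 arrays (7.38 and 7.30, and 7.27 and 7.31), where AEN probe 2 is lowest (6.27 and 6.53).

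In the scrambled subline, which shows what doxycycline and an induced hairpin did without an HNF4G target sequence, no member probe passed by limma (0.0313% of all kept probes did), and 5 had an unadjusted p under 0.05, 5 above 0 and 0 below (9.52% of all kept probes in all, 4.54% above and 4.99% below). They were the 3 ZMAT3 probes, CDKN1A and SESN1. The members had a median response of 0.16, against 0.00 for all kept probes, and 7 of 33 lay below the median of all probes (against 50%). Under common-median scaling the member median was -0.01 and that of all probes -0.15. The smallest response that passed here was 1.24 in size. TP53INP1, a stress protein of autophagy and cell death, had a response of 0.43 ± 0.21 at probe 1 and 0.16 ± 0.17 at probe 2.

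The 12 probes of the apoptosis branch (8 genes) had median responses of -0.07 with hairpin 1, 0.06 with hairpin 2 and 0.16 in the scrambled subline, and none passed. BBC3, the BH3 protein PUMA, responded by 0.08 ± 0.16, 0.19 ± 0.16 and 0.09 ± 0.16 in that order. BAX probe 1, for the pore-forming executor of mitochondrial apoptosis, responded by -0.19, -0.07 and 0.01, and BAX probe 2 by -0.25, -0.41 and 0.17. The death receptor TNFRSF10B responded by -0.02, -0.15 and 0.17 at probe 1. APAF1, the apoptosome scaffold, responded by -0.44 ± 0.23, 0.10 ± 0.23 and 0.41 ± 0.23 at probe 1, and APAF1 probe 2 was near background. PERP, a desmosomal membrane protein, responded by 0.13, 0.13 and -0.07, and SPATA18, a mitochondrial quality control protein, by -0.06, 0.03 and 0.30. TRIAP1, a mitochondrial lipid carrier that restrains apoptosis, responded by 0.01, 0.33 and 0.07.

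MDM2, the classical feedback target, read 5.59 and 5.55 with doxycycline and 5.07 and 5.68 without it in the hairpin 1 subline, 5.59 and 5.34 against 5.49 and 5.46 in the hairpin 2 subline, and 5.22 and 5.23 against 5.07 and 5.67 in the scrambled subline. Induced and uninduced arrays overlapped in all 3. It was above background on 9 of 12 arrays, and its responses of 0.20 ± 0.22, -0.01 ± 0.22 and -0.14 ± 0.22 had 95% intervals of -0.29 to 0.68, -0.49 to 0.47 and -0.63 to 0.34. The damage recognition genes of nucleotide excision repair were XPC, which responded by 0.03, -0.03 and 0.08, and DDB2, which responded by -0.18, 0.21 and 0.02.

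Counting probes whose 2 induced arrays did not overlap the 2 uninduced ones gave 13 lower and 7 higher member probes with hairpin 1, where 20.5% and 21.7% of all kept probes did so. With hairpin 2 the counts were 3 lower and 14 higher (22.9% and 24% of all kept probes), and with the scrambled hairpin 2 lower and 11 higher (19.4% and 18.7%). Probes near background are included. PLK3 and TNFRSF10B probe 2 are among the lower probes with hairpin 1. PLK3 and APAF1 probe 2 are among the higher ones with hairpin 2, and PLK3 is among the higher ones with the scrambled hairpin.

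Whether the HNF4G hairpins did more than the scrambled one was asked by subtracting the scrambled response. The mean of both hairpin responses minus the scrambled response passed for 0 of 33 member probes by limma (0.209% of all kept probes), and 3 had an unadjusted p under 0.05 (11.6%), 1 above 0 and 2 below (5.83% and 5.78%): RRM2B probe 2 (0.77 ± 0.25, adjusted p = 0.251), AEN probe 2 (-0.52 ± 0.21, adjusted p = 0.347) and PLK3, near background. APAF1 probe 1 (-0.57 ± 0.28, adjusted p = 0.451) and BAX probe 2 (-0.50 ± 0.25, adjusted p = 0.462) followed. The other probes of these genes had smaller values: RRM2B probe 1 0.10, AEN probe 1 -0.20, BAX probe 1 -0.14 and APAF1 probe 2, near background, 0.08. The member median was -0.14, against 0.01 for all probes, and under common-median scaling it was 0.14 against 0.23.

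Hairpin 1 alone minus the scrambled response also passed for 0 member probes (0.177% of all kept probes), with 5 at an unadjusted p under 0.05 (10.3%), 1 above 0 and 4 below (5.24% and 5.06%). Of the 33 probes, 30 lay below the median of all probes (against 50%), with a member median of -0.20 against 0.01 for all probes. This count was 23 without the uninduced scrambled array, replicate 2, the lowest of the fits that left out 1 array, and 24 under common-median scaling, where the medians were 0.08 for the members and 0.29 for all probes. SESN1 led (-0.80 ± 0.25, adjusted p = 0.279), followed by CDKN1A (-0.79 ± 0.28, adjusted p = 0.347), APAF1 probe 1 (-0.85 ± 0.32, adjusted p = 0.367) and RRM2B probe 2 (0.74 ± 0.29, adjusted p = 0.387). RRM2B probe 1 had -0.02, and APAF1 probe 2, near background, had -0.13. PLK3 is also among the 5, but it was kept through 1 array of each group that this difference subtracts. For CDKN1A the 95% interval of this difference ran from -1.40 to -0.18. Both terms contributed to it, since its response was -0.30 with hairpin 1 and 0.49 with the scrambled hairpin. The scrambled term depends largely on uninduced replicate 1, at 9.92, where uninduced replicate 2 read 10.61 and the induced arrays 10.76 and 10.75.

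Hairpin 2 minus the scrambled response passed for 0 member probes (0.214% of all kept probes), and 3 had an unadjusted p under 0.05 (12.3%), 2 above 0 and 1 below (5.94% and 6.41%). They were AEN probe 2 (-0.78 ± 0.24, adjusted p = 0.199), PHLDA3 (0.77 ± 0.27, adjusted p = 0.255) and RRM2B probe 2 (0.79 ± 0.29, adjusted p = 0.283). BAX probe 2 (-0.58 ± 0.28) and ZMAT3 probe 3 (-0.52 ± 0.29) were next. The other probes of these genes had smaller values: AEN probe 1 -0.06, RRM2B probe 1 0.23, BAX probe 1 -0.08 and the other ZMAT3 probes -0.38 and -0.25. Here 17 of 33 lay below the median of all probes (against 50%) and the member median was -0.06 against 0.01 for all probes. Under common-median scaling both medians were 0.17, so the sign of the member median turned. Both hairpin comparisons use the same 4 scrambled arrays.

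**Figure D3:**
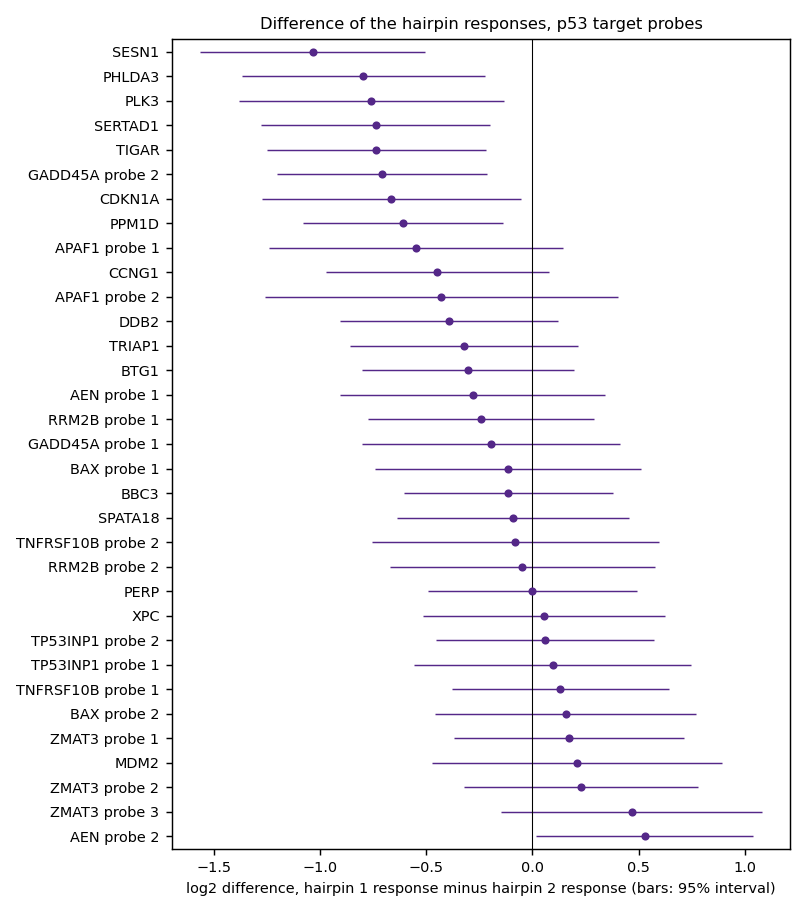
Hairpin 1 response minus hairpin 2 response on the log2 scale (horizontal axis) for each member probe, ordered by size, with 95% intervals from limma. The intervals of 8 probes, PLK3 near background among them, lie wholly below 0, led by SESN1 at -1.03. That of 1 AEN probe lies wholly above 0. None of the 33 passed after adjustment.

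Set directly against each other, the hairpin responses differed for 0 of 33 member probes after adjustment (0.0417% of all kept probes passed by limma), and 9 had an unadjusted p under 0.05 (10.3%), 8 with the lower value in hairpin 1 and 1 with the higher (5.01% and 5.29% of all kept probes). In order of p these were SESN1 (-1.03 ± 0.25, adjusted p = 0.173), GADD45A probe 2 (-0.71 ± 0.23), TIGAR (-0.73 ± 0.24), PHLDA3 (-0.80 ± 0.27), SERTAD1 (-0.74 ± 0.25), PPM1D (-0.61 ± 0.22), PLK3 (near background), CDKN1A (-0.66 ± 0.28, adjusted p = 0.441) and, on the high side, AEN probe 2 (0.53 ± 0.24, adjusted p = 0.465). AEN probe 1 had -0.28, on the other side of 0. The smallest difference that passed for any probe was 1.36 in size. Leaving out PLK3, the cell cycle probes were all below 0 in this comparison, from -0.74 (SERTAD1) to -0.19 (GADD45A probe 1), with 2 of them of GADD45A. By definition 50% of all kept probes lie below their median, which was 0.00 here, and the share below 0 was not counted. The 10 probes of the feedback and regulator branch were divided, 4 below and 6 above. ZMAT3 and TP53INP1 were counted there through each of their probes, all above 0. The 12 apoptosis probes, TNFRSF10B probe 2 and APAF1 probe 2 near background among them, had a median of -0.10. The member median was -0.19 against 0.00 for all probes. Under common-median scaling these were -0.04 and 0.12.

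**Figure D4:**
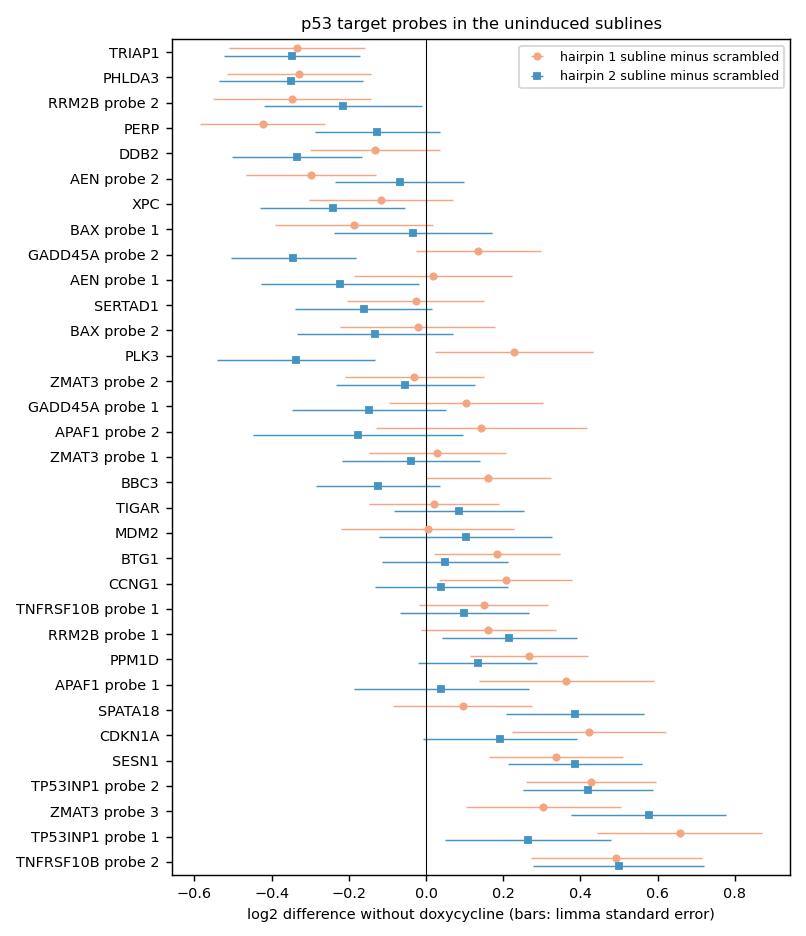
Log2 difference from the scrambled subline without doxycycline (horizontal axis) for each member probe, ordered by the mean of both, with hairpin 1 as circles, hairpin 2 as squares and bars of 1 limma standard error. Both TP53INP1 probes lie above 0 in both sublines (0.66 and 0.43 with hairpin 1, 0.26 and 0.42 with hairpin 2).

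Before induction the sublines could already differ, which bears on where each response starts. Without doxycycline the hairpin 1 subline differed from the scrambled subline at 0 of 33 member probes (0.334% of all kept probes passed by limma), and 4 had an unadjusted p under 0.05 (9.27%), 3 above 0 and 1 below (4.78% and 4.5%). These were both TP53INP1 probes (0.66 ± 0.21, adjusted p = 0.314, and 0.43 ± 0.17, adjusted p = 0.435), PERP (-0.42 ± 0.16, adjusted p = 0.421) and TNFRSF10B probe 2, which was not above background on any array of either group, so that no difference is given. CDKN1A was next (0.42 ± 0.20, adjusted p = 0.550), at 10.72 and 10.66 in uninduced hairpin 1 cells against 9.92 and 10.61 in uninduced scrambled cells. That difference depends largely on scrambled replicate 1, at 9.92. TP53INP1 probe 1 read 8.13 and 8.02 in uninduced hairpin 1 cells, 7.57 and 7.79 in uninduced hairpin 2 cells, and 7.68 and 7.16 in uninduced scrambled cells. The hairpin 1 arrays lay above both scrambled arrays, and the hairpin 2 arrays overlapped them.

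The uninduced hairpin 2 subline differed from the scrambled one at 0 member probes too (0.25% of all kept probes passed by limma), with 4 at an unadjusted p under 0.05 (9.93%), 4 above 0 and 0 below (5.28% and 4.65%). They were ZMAT3 probe 3 (0.58 ± 0.20, adjusted p = 0.369), TP53INP1 probe 2 (0.42 ± 0.17, adjusted p = 0.437), TNFRSF10B probe 2 and SESN1 (0.39 ± 0.17, adjusted p = 0.488). SPATA18 followed (0.39 ± 0.18, adjusted p = 0.505). The other ZMAT3 probes had -0.04 and -0.05, and TP53INP1 probe 1 had 0.26. That TNFRSF10B probe was above background on 2 of the 12 arrays, both in the hairpin 2 subline, through which it met the detection rule, and no difference is given for it. The members' median difference was 0.10 for hairpin 1 and -0.04 for hairpin 2, against 0.00 and 0.01 for all probes. Under common-median scaling the members had 0.05 and 0.08, the hairpin 2 sign turning, and all probes -0.05 and 0.12. These comparisons also share their scrambled arrays.

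Of the 24 genes measured, 8 had more than 1 kept probe. At the edge of the detection rule, PLK3, TNFRSF10B probe 2 and APAF1 probe 2 were above background on 2 arrays, and a probe of TP53I3, a quinone oxidoreductase, missed the rule with 1 array. For 5 genes every annotated probe stayed below the rule: TP53I3, the death receptors FAS and EDA2R, the translesion polymerase POLK and the polo-like kinase PLK2. Their intensities ran from 81.7 (lowest, POLK) to 140 (highest, TP53I3) in scanner units. PLK2 averaged 113 with doxycycline against 93.1 without it with hairpin 1, 111 against 96.5 with hairpin 2, and 101 against 97.3 with the scrambled hairpin, all without passing the detection cut on any array. BTG2 and FDXR, the remaining members, had no probe of their name in the annotation used and were not analysed here.

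Other p53 targets, 36 further genes measured by 51 probes, gave 1 call in the hairpin 1 response, 0 in the hairpin 2 response and 0 in the scrambled response. Of all kept probes 0.589%, 0.97% and 0.0313% passed by limma in the same order. Unadjusted, 11, 8 and 6 of the 51 probes had p under 0.05, against 11.1%, 13.9% and 9.52% of all kept probes. The call was GDF15, a stress-induced cytokine. GDF15 read 7.59 and 7.77 with doxycycline and 8.67 and 8.68 without it in the hairpin 1 subline, 8.49 and 8.62 against 9.01 and 8.89 in the hairpin 2 subline, and 8.69 and 8.47 against 8.79 and 8.50 in the scrambled subline. Both induced hairpin 1 arrays were below all other arrays. GDF15 fell with hairpin 1 (-0.99 ± 0.16, adjusted p = 0.0141), and its values with hairpin 2 (-0.40 ± 0.16, adjusted p = 0.290) and the scrambled hairpin (-0.07 ± 0.16) did not pass. Against the scrambled response hairpin 1 gave -0.93 ± 0.23 (adjusted p = 0.178). The call did not hold without any 1 of the 4 hairpin 1 arrays (adjusted p = 0.163 and 0.0696 without induced replicates 1 and 2, 0.0946 and 0.0881 without uninduced replicates 1 and 2).

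Next by p with hairpin 1 among these further targets were IER5 (-0.60 ± 0.16), an immediate early gene, the decoy receptor TNFRSF10C (0.70 ± 0.20) and the second probe of PMAIP1, the BH3 protein NOXA (0.64 ± 0.18). With hairpin 2 they were the second ANKRA2 probe (0.65 ± 0.17), the lysosomal fucosidase FUCA1 (0.50 ± 0.16), the apoptosis inhibitor BCL2L1 (-0.49 ± 0.15) and the first PMAIP1 probe (0.47 ± 0.17). None of these passed. The other probes of PMAIP1 and ANKRA2 are not given for these responses, so each value holds for its probe only. The median over the 51 probes was 0.00 with hairpin 1, 0.09 with hairpin 2 and -0.08 with the scrambled hairpin. Minus the scrambled response it was 0.20 for the mean of both hairpins (34 of 51 above 0), 0.11 for hairpin 1 (28 above 0) and 0.14 for hairpin 2 (35 above 0), with 0 calls, whereas the member medians in these comparisons were -0.14, -0.20 and -0.06. All kept probes had a median of 0.01 in each of these comparisons, and 0.209%, 0.177% and 0.214% of them passed by limma. The share of all kept probes above 0 was not counted, and the difference between the lists was not tested.

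Regulators of p53, 22 genes and 35 probes, gave 0 calls in each response. Of all kept probes 0.589%, 0.97% and 0.0313% passed by limma with hairpin 1, hairpin 2 and the scrambled hairpin. Unadjusted, 2, 6 and 3 of the 35 probes had p under 0.05, against 11.1%, 13.9% and 9.52% of all kept probes. The smallest p-values with hairpin 1 belonged to the acetyltransferase KAT5 (-0.50 ± 0.19 at its first probe and 0.02 ± 0.27 at its second), the p53-binding protein TP53BP2 (-0.69 ± 0.27 at its second probe), NPM1, a nucleolar chaperone (-0.36 ± 0.18), and the second probe of CDKN2A, the locus of p14ARF and p16 (-0.39 ± 0.20). The first probes of TP53BP2 and CDKN2A had -0.23 and -0.03 with hairpin 1. The first KAT5 probe had -0.51 ± 0.19 in the scrambled subline as well. With hairpin 2 they were the first and second probes of the damage kinase ATM (-0.49 ± 0.15 and -0.59 ± 0.20), the second probe of the kinase DYRK2 (0.58 ± 0.20) and TP53BP2 (-0.53 ± 0.18 at its first probe). The other DYRK2 probes had -0.23 and -0.10 in that response and the second TP53BP2 probe 0.12, so the probes of these genes disagree. MDM4, the partner of MDM2 that masks p53, had 5.94 and 5.51 with doxycycline and 5.80 and 5.90 without it with hairpin 1, 6.37 and 5.42 against 5.57 and 5.32 with hairpin 2, and 5.63 and 6.03 against 5.57 and 5.67 in the scrambled subline. Its responses of -0.13 ± 0.26, 0.45 ± 0.26 and 0.21 ± 0.26 did not pass. The p53 gene itself was not analysed here.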

How the data were processed

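The 12 samples were run as biotin-labelled RNA on HumanHT-12 v4 bead arrays from Illumina. The deposited non-normalized table holds intensity per probe in scanner units, and beside it the deposited detection p-value of each probe, per the file headers. BeadStudio and Partek are named in the submitters' processing notes, with versions not given in the sources used here. The deposited series matrix holds log2 values with the same median in every array and the probe order of the intensities, and served as an alternative. In R 4.3.3 with limma 3.58.1, background correction (from the detection p-values), quantile normalization and log2 were done by neqc, whose offset was 16. Probes with detection p under 0.01 on 2 or more arrays were kept (19172). Each was tested in a linear model of 6 group means moderated by eBayes, with 6 degrees of freedom from residuals and 7.31 from the prior. Gene names came from the platform annotation, where 30113 probes had 1 symbol, 8 had several and 17202 were not listed. The code was tested on simulated data. Alternatives were other background, scaling, filter, moderation and unit choices, the authors' values, the replicate block and leaving out each array. Replicates 1 and 2 were not treated as pairs: differences between replicates correlated at -0.03 to 0.06 between groups. Only 2 arrays per group limit the precision. All member genes with a kept probe were named, with the 5 smallest p per comparison where none passed, and up to 4 genes per further list. Members, lists and tests were chosen with earlier results of these data known.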

Additional observations from a re-analysis of the deposited data

How the results depend on the processing

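None of the 9 comparisons between 2 groups or responses called a member probe in the fits that left out 1 array each (0 to 0), nor under any other alternative, with 1 exception: when only probes above background on all 12 arrays were tested, 2 member probes passed in the hairpin 2 response, AEN (-0.60, adjusted p = 0.0475) and SESN1 (0.61, adjusted p = 0.0488). That alternative tests fewer probes (13676), of which 441 passed in this response, whereas 186 of 19172 did in the main fit. The count over the 6 groups was 1 (SESN1). It became 5 without background correction, 5 with the authors' values, 4 with common-median scaling, 6 with probes above background on every array and 6 with a trended, robust prior, and 0 to 2 when 1 array was left out. The added probes were of AEN, RRM2B, TP53INP1 and ZMAT3 in most of these, with TIGAR, CDKN1A or PLK3 in 1 each, and the cause was not tested. Calls over all tested probes rose too in the settings with 4 to 6 member probes, where the main fit called 678 of 19172. They were 1766 without background correction, 1749 with the authors' values, 1201 with common-median scaling and 1888 with the trended, robust prior, each of 19172. With probes above background on every array they were 1239 of 13676. The replicate block gave 1 member probe over the 6 groups and 0 in each comparison, and changed no call. Counts below the median of all probes, an alternative set chosen after seeing the data, ran over single left-out arrays from 19 to 23 (hairpin 1), 6 to 12 (hairpin 2), 7 to 10 (scrambled), 23 to 30 and 15 to 18 (hairpins 1 and 2 minus scrambled), and 21 to 24 (hairpin 1 minus hairpin 2). With all 44 probes the scrambled count was 12, and with 1 probe per gene (24 genes) it was 5 for hairpin 2 and 11 for hairpin 2 minus scrambled. Restricting the fit to the sublines compared does not apply to the mean of both hairpins or the 6 groups, which use all arrays. GDF15 lost its call under common-median scaling (adjusted p = 0.159) and with the hairpin 1 arrays alone (0.0954). No member value that was followed changed sign. Signal over background limits PLK3, TNFRSF10B probe 2 and APAF1 probe 2, each above background on 2 arrays.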

Other observations

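Genes that p53 and p21 repress through the DREAM complex, 25 genes of mitosis and replication measured by 35 probes, gave 0 calls by limma in any of the 3 responses. With hairpin 1, hairpin 2 and the scrambled hairpin 0.589%, 0.97% and 0.0313% of all kept probes passed. At an unadjusted p under 0.05 there were 5 probes with hairpin 1, 6 with hairpin 2 and 0 with the scrambled hairpin, where 11.1%, 13.9% and 9.52% of all kept probes lay. Responses above 0 were seen for 6 of the 35 probes with hairpin 1, 4 with hairpin 2 and 12 with the scrambled hairpin. The medians were -0.15, -0.20 and -0.11, against 0.01, 0.00 and 0.00 for all kept probes. The share of all kept probes above 0 was not counted. Common-median scaling, which moved the medians of all probes to 0.15, 0.02 and -0.15, was not applied to this list. FOXM1, a transcription factor of mitotic genes, had -0.69 ± 0.17 and -0.68 ± 0.20 at its 2 probes with hairpin 1 (adjusted p = 0.0983 and 0.195), followed by the kinase AURKB (-0.57 ± 0.19) and the second probe of survivin, BIRC5 (-0.55 ± 0.21). MKI67, the proliferation marker Ki-67, had -0.61 ± 0.17 with hairpin 2 (adjusted p = 0.113), followed by the second KIF23 probe (0.79 ± 0.29), the kinetochore protein CENPF (-0.50 ± 0.20) and the helicase subunit MCM3 (-0.37 ± 0.15). The other probes of BIRC5 and KIF23 are not given, so those values hold for the named probes only. Other cell cycle genes were already known to be lower in these data when the list was chosen, so the direction of the list is not independent support.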
